A study of Homo sapiens with 32 samples.

Results

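The genes described are 10 members of 3 families that act at the entry to the cell cycle: the D cyclins *CCND1*, *CCND2*, and *CCND3*, the CDK inhibitors *CDKN1A* (p21), *CDKN1B* (p27), *CDKN1C* (p57), and *CDKN2C* (p18), and the growth arrest and DNA damage genes *GADD45A*, *GADD45B*, and *GADD45G*. They were taken by symbol from a table of 25498 genes, and all 10 had a row. Of these, 9 passed the filter on low counts, as did 16995 genes in all, and *CCND2* did not. The libraries came from LNCaP, an androgen-responsive line derived from a lymph node metastasis of prostate carcinoma. There were 8 groups of 4 libraries: cells kept in fetal bovine serum (FBS), cells moved to charcoal-stripped serum (CSS), from which steroid hormones are depleted, and cells in CSS given 100 ng/mL EGF or 100 ng/mL NRG-1 for 5 minutes, 1 hour, or 4 hours. EGF binds the receptor EGFR, and NRG-1 binds HER3 and HER4, each of which pairs with HER2. Each group held 2 replicates in each of 2 batches, and the CSS libraries carried no treatment time, so each ligand and time was compared with the same untreated cells.

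D cyclins bind CDK4 and CDK6, and these kinases phosphorylate the retinoblastoma protein, which releases E2F factors and opens the way from G1 into S phase. Growth factors are known to raise D cyclins through the ERK pathway. The CDK inhibitors oppose this step: p21, p27, and p57 bind cyclin and CDK together, while p18 belongs to the INK4 family and binds CDK4 and CDK6 alone. GADD45 proteins are small stress-induced proteins that bind p21, PCNA, and CDK1 and activate the kinase MAP3K4, which lies upstream of p38 and JNK. In prostate cells *CDKN1A* is a target of p53, and *CDKN1B* is a target of FOXO factors, which AKT holds in the cytoplasm.

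The promoters of *CDKN1A*, *CDKN1B*, and *GADD45B* are shown because these 3 genes rose together 1 hour after either ligand. Each is the 250 bases before the RefSeq start on the plus strand of GRCh38.p14, at chr6:36678464-36678713 for *CDKN1A*, chr12:12717118-12717367 for *CDKN1B*, and chr19:2475877-2476126 for *GADD45B*. Capitals mark every match to the 12 motifs searched on both strands.
CDKN1A: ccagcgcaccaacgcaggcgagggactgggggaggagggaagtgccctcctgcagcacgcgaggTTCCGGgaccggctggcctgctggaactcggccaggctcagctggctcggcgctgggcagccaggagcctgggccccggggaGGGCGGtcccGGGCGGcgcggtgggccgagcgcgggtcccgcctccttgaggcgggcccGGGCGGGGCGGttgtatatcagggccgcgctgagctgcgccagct
CDKN1B: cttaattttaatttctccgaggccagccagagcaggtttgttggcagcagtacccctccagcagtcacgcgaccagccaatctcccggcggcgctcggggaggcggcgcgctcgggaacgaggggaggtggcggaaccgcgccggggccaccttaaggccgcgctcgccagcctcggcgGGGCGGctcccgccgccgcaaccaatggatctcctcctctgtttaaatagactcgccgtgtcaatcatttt
GADD45B: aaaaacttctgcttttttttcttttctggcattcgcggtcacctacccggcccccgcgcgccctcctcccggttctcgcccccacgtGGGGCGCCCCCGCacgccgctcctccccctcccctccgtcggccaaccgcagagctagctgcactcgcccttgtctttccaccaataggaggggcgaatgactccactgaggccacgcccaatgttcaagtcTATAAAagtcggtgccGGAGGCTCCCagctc
In *CDKN1A* the capitals are an ETS match (CCGGAA, read on the other strand) 186 to 181 bases before the start and 4 SP1 GC boxes (GGGCGG), the last 2 of which share a base. *CDKN1B* held 1 GC box, 71 to 66 bases before the start. *GADD45B* held an EGR match (GCGNGGGCG, on the other strand) 159 to 151 bases before the start, which overlapped an NF-kappaB match at 163 to 154, a further NF-kappaB match at 15 to 6, and a TATA box (TATAAA) at 31 to 26. Among the 35116 promoters of the same length in the table, 14.5% held the ETS letters, 42.6% a GC box, 8.41% the EGR letters, 9.96% an NF-kappaB match, and 10.7% a TATA box. None of the 3 windows held the CArG box of the serum response element (in 1.16% of all promoters), AP-1 (TGANTCA, 6.57%), CRE (TGACGTCA, 1.65%), E2F (TTTCGCGC, TTTGGCGC, or TTTCCCGC, 2.32%), forkhead (TGTTTAC, 2.98%), or a p53 half-site (5.57%). The androgen response element half-site (AGAACA, in 12.4% of all promoters) was also absent from the 3 windows. Promoters of 6 of the 10 genes were in the table, the others being those of *CCND3*, *CDKN2C*, and *GADD45G*. A letter match is a description of the sequence, and its use in these cells was not measured.

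Library totals lay between 63822654 and 92401724 estimated counts, with a median of 77866194. Of the luminal and LNCaP markers, *KLK3* was at 143 TPM or more in every library. Of the fibroblast markers, *COL1A1* read 1.36 to 5 TPM and was above 0 in all 32 libraries, whereas *COL1A2* was at 0 in all 32 and *DCN* did not exceed 0.03 TPM. Of the basal markers, *KRT14* was above 0 in every library and reached 2.17 TPM, and *KRT5* and *TP63* did not exceed 0.03 TPM. The leukocyte markers reached 0.18 TPM (*CD14*), 0.04 TPM (*PTPRC*), and 0.02 TPM (*CD3E*), and the endothelial markers *PECAM1* and *CDH5* 0.01 TPM. The 9442 genes called between batches, 55.6% of those tested, included *CDKN1A*, which was 1.73-fold higher in batch 2 (adjusted P = 9.05e-15, edgeR quasi-likelihood test), and *CDKN2C*, which was lower there, with a log2 difference of -0.36. Libraries differed between replicates by more than sampling noise in all 48 pairs compared, and since the labels do not say that replicates came from separate cultures, P values measure the spread between these libraries. In the text, levels of 1 gene across groups are CPM (TMM-scaled CPM, a count divided by library size), and levels of different genes are compared as TPM, which accounts for transcript length. Values of a group are listed as batch 1 replicates 1 and 2, then batch 2 replicates 1 and 2.

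In unstimulated CSS cells, *CCND1* was the most abundant of the 10 by mean TPM, at 126 ± 12.1 TPM (SD, n = 4). *CDKN1A* followed at 93.0 ± 32.8 TPM and *CDKN1B* at 84.4 ± 7.81 TPM, but their order differed by batch. In batch 1 *CDKN1A* (61.85 and 68.87 TPM) lay below *CDKN1B* (85.65 and 94.58 TPM). In batch 2 *CDKN1A* (129.32 and 111.95 TPM) lay above *CDKN1B* (81.14 and 76.2 TPM) and near *CCND1* (135.77 and 111.41 TPM). *CCND3* (37.5 ± 4.46 TPM), *GADD45G* (34.8 ± 2.28 TPM), *CDKN2C* (24.4 ± 4.96 TPM), and *GADD45A* (19.5 ± 1.51 TPM) formed a middle range. *GADD45B* was low at 4.33 ± 0.262 TPM, and *CDKN1C* lower at 1.16 ± 0.195 TPM. *CCND2* was all but absent: its libraries held 0 to 4 counts each, 36 in all, and 10 of 32 libraries had none. Because no library reached 5 counts, *CCND2* was not tested, and no difference in it could be detected at this depth. These are bulk libraries, so a change in RNA per cell and a change in the number of cells carrying it cannot be told apart.

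**Figure D1:**
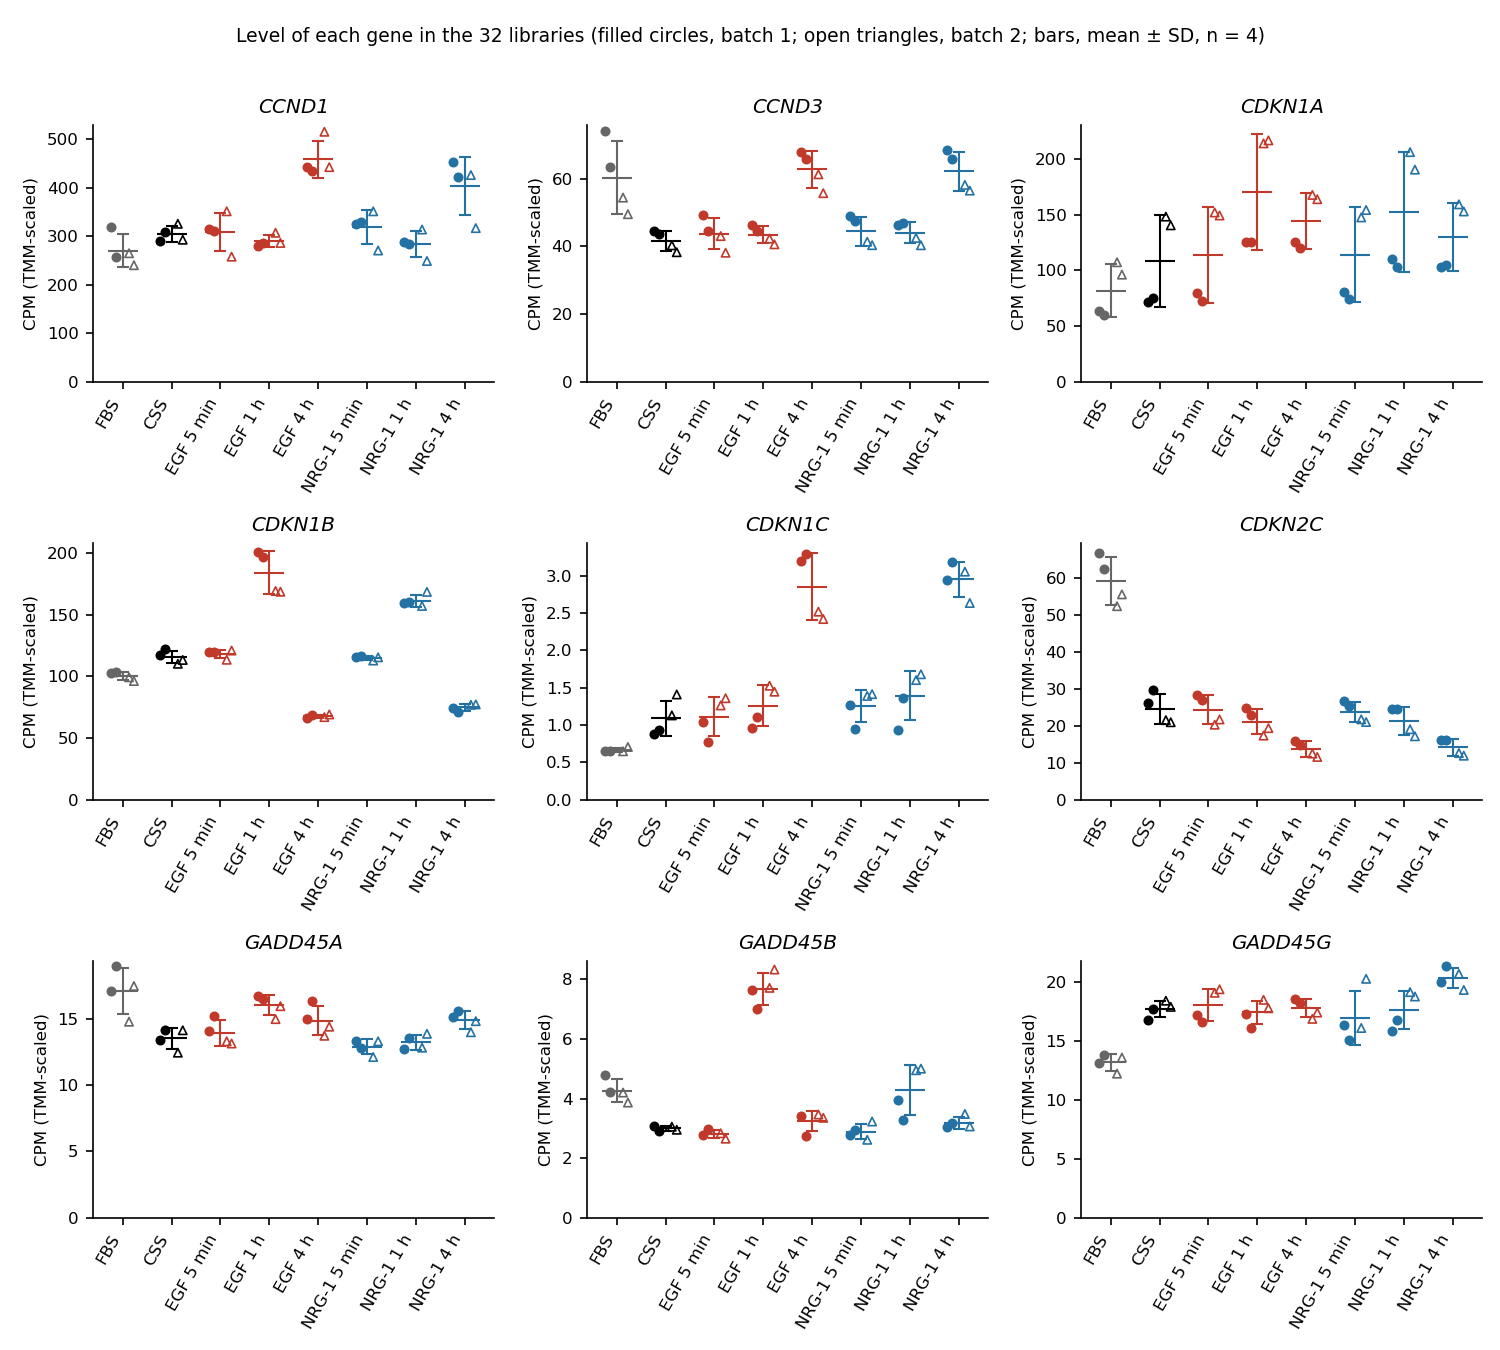
Level of each of the 9 tested genes in every library, in TMM-scaled CPM on axes that start at 0. Filled circles are batch 1, open triangles are batch 2, and bars are the mean ± SD of 4 libraries. *CDKN1B* stood highest at 1 hour and lowest at 4 hours with either ligand, *GADD45B* peaked at 1 hour of EGF (6.99 to 8.33 CPM), and *CDKN1A* split by batch in every group.

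The number of members that changed against CSS grew with time. At 5 minutes none of the 9 passed an adjusted P of 0.05 with EGF or with NRG-1, and none had an unadjusted P below 0.05. Of all genes tested, 0.00588% were called with EGF and 0% with NRG-1, while 251 and 324 had an unadjusted P below 0.05, and DESeq2 also called none of the members. The member differences from CSS at 5 minutes lay from -0.09 to 0.07 (log2) for EGF and from -0.07 to 0.21 for NRG-1. After 1 hour of EGF, 4 of 9 rose and 1 fell, against 6% and 3.51% of all genes. After 1 hour of NRG-1, 3 rose and 1 fell, against 4.45% and 2.28%. After 4 hours of EGF, 4 rose and 2 fell, and 24.6% of all genes were called in each direction. After 4 hours of NRG-1, 5 rose and 2 fell, against 21.6% and 21%.

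Few of these changes reached a DEG, defined by an adjusted P under 0.05 together with a log2 fold change above 1 or under -1. *GADD45B* was the only member DEG at 1 hour of EGF, where 1.72% of all genes were DEGs. *CDKN1C* was the only member DEG at 4 hours, both of EGF (9.56% of genes) and of NRG-1 (7.41%). No member was a DEG at 1 hour of NRG-1 (0.989% of genes). In the comparison of FBS with CSS *CDKN2C* alone was a DEG (8.71% of genes).

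**Figure D2:**
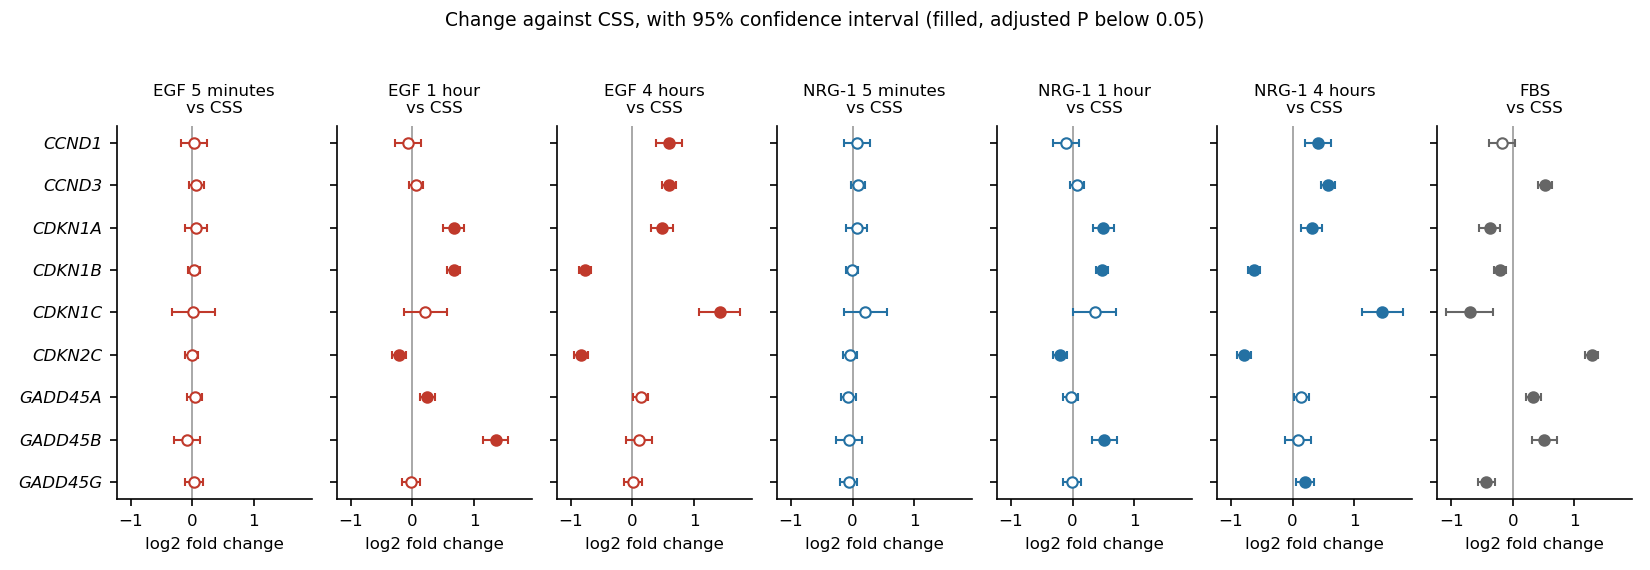
Log2 fold change of each gene against CSS, by ligand and time and for FBS, with 95% confidence intervals from the edgeR fit. Filled symbols have an adjusted P below 0.05. The 5-minute panels hold no filled symbol, *CDKN1B* lies above 0 at 1 hour and below 0 at 4 hours, and *CDKN2C* lies below 0 with the ligands and at 1.28 with FBS.

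*CCND1*, the cyclin best known as a growth factor target, rose only at 4 hours among the ligand times tested. Its CSS libraries read 290.4, 309, 325, and 293 CPM. At 1 hour of EGF they read 279, 286, 307, and 286 CPM, within or just under the CSS range, and at 4 hours 443, 433, 515, and 442 CPM. All 4 EGF libraries at 4 hours stood above every CSS library, a log2 change of 0.59 ± 0.10 (SE; adjusted P = 1.96e-05). With 4 hours of NRG-1 they read 452, 421, 426, and 317 CPM, with batch 2 replicate 2 below the highest CSS library, and the log2 change was 0.41 ± 0.10 (adjusted P = 0.00188). Within batches the NRG-1 change was 0.54 in batch 1 (adjusted P = 3.41e-05) and 0.28 in batch 2 (adjusted P = 0.403), and by limma on log2(TPM + 1) it was 0.30 (adjusted P = 0.171).

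*CCND3*, the other D cyclin expressed, was called at 4 hours and not at 1 hour with either ligand. CSS libraries read 44.6, 43.6, 40.3, and 38.3 CPM. Libraries at 4 hours of EGF read 68.0, 65.9, 61.3, and 55.7 CPM, and after 4 hours of NRG-1 68.4, 65.9, 58.2, and 56.5 CPM. Neither group overlapped CSS, and the log2 changes were 0.59 ± 0.06 (adjusted P = 8.02e-10) and 0.58 ± 0.06 (adjusted P = 1.83e-09). At 1 hour the EGF change was 0.06 (95% confidence interval -0.06 to 0.18), and the NRG-1 change was 0.08 (-0.04 to 0.19). Summed over the family, D cyclin transcripts stood at 163 ± 15.3 TPM in CSS, 234 ± 22.8 TPM after 4 hours of EGF, and 210.4 ± 42.5 TPM after 4 hours of NRG-1. Within that sum *CCND1* made up 77.0% ± 1.68 in CSS and 76.9% ± 2.26 after 4 hours of EGF.

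*CDKN1B*, which encodes the p27 protein that holds cyclin E and CDK2 inactive, rose and then fell. CSS libraries read 117, 122, 110.3, and 113 CPM. Those at 1 hour of EGF read 201, 197, 169, and 169 CPM, and after 1 hour of NRG-1 160, 160.3, 157, and 169 CPM. Every 1-hour library of either ligand stood above every CSS library, by a log2 change of 0.67 ± 0.05 with EGF (adjusted P = 8.29e-12) and 0.48 ± 0.05 with NRG-1 (adjusted P = 1.50e-08). By 4 hours of EGF they read 66.4, 68.4, 67.0, and 69.2 CPM, and after 4 hours of NRG-1 74.2, 71.0, 77.0, and 77.3 CPM. At that time every library lay below every CSS library, with log2 changes of -0.77 ± 0.05 (adjusted P = 1.16e-13) and -0.63 ± 0.05 (adjusted P = 1.45e-11).

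The reversal of *CDKN1B* between 1 hour and 4 hours was tested directly. From 1 hour to 4 hours it fell by 1.44 ± 0.05 (log2) with EGF (adjusted P = 1.70e-19) and by 1.11 ± 0.05 with NRG-1 (adjusted P = 7.19e-17). In order of mean CPM the groups ran from EGF 1 hour through NRG-1 1 hour, EGF 5 minutes, CSS, NRG-1 5 minutes, FBS, and NRG-1 4 hours to EGF 4 hours. Only the neighbours EGF 5 minutes, CSS, and NRG-1 5 minutes overlapped in this order. In the order by mean TPM 4 of 7 neighbouring pairs overlapped. These included FBS with NRG-1 4 hours, and NRG-1 4 hours with EGF 4 hours. The fall against CSS held in each batch, at -0.83 and -0.69 with EGF and at -0.72 and -0.52 with NRG-1.

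*CDKN1A*, which encodes p21, rose at 1 hour and was still above CSS at 4 hours. Its batches lay far apart, so levels are best read within a batch: CSS libraries read 71.5 and 74.9 CPM in batch 1 and 148 and 141 CPM in batch 2. EGF for 1 hour gave 125, 125, 214, and 217 CPM, and NRG-1 for 1 hour gave 110.1, 103, 206, and 191 CPM. Within each batch both 1-hour groups stood clear of CSS, and the log2 changes were 0.67 ± 0.08 with EGF (adjusted P = 5.82e-07) and 0.50 ± 0.08 with NRG-1 (adjusted P = 0.00012). EGF for 4 hours gave 126, 120.3, 168, and 164 CPM, and NRG-1 for 4 hours gave 103, 105, 159, and 153 CPM.

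At 4 hours the *CDKN1A* change was called in batch 1 and not in batch 2, a difference that was not itself tested. The pooled log2 changes were 0.48 ± 0.08 with EGF (adjusted P = 2.07e-05) and 0.31 ± 0.08 with NRG-1 (adjusted P = 0.00352). In batch 1 alone they were 0.75 and 0.50 (adjusted P = 6.31e-08 and 6.81e-06). In batch 2 alone, where the CSS level was higher, they were 0.23 and 0.13 and were not called (adjusted P = 0.0737 and 0.365). By limma on log2(TPM + 1) the NRG-1 change was 0.21 and was not called (adjusted P = 0.14). At 1 hour of EGF the change was called in each batch, at 0.79 and 0.58 (adjusted P = 1.48e-07 and 0.00152). With the replicate number as a block, the fall of *CDKN1A* from 1 hour to 4 hours of EGF was called at -0.19 (adjusted P = 0.0439), whereas without it the same change had an adjusted P of 0.0644. Of 20 alternatives 9 called this fall, with log2 changes from -0.36 to -0.04. In batch 1 alone it was -0.04 and was not called (adjusted P = 0.63).

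*CDKN1C* encodes p57, an imprinted inhibitor that is scarce in these cells, and it showed the largest 4-hour rise of the members with either ligand. CSS libraries read 0.883, 0.931, 1.13, and 1.41 CPM. Libraries at 4 hours of EGF read 3.19, 3.29, 2.52, and 2.42 CPM, and after 4 hours of NRG-1 2.94, 3.19, 3.05, and 2.63 CPM. No library of either 4-hour group overlapped CSS, and the log2 changes were 1.42 ± 0.16 (adjusted P = 2.53e-08) and 1.46 ± 0.16 (adjusted P = 2.29e-08). It was called in each batch, at 1.84 with EGF and 1.75 with NRG-1 in batch 1 and at 0.99 and 1.18 in batch 2. At 1 hour its value was 0.21 (-0.14 to 0.56) with EGF (adjusted P = 0.601), and with NRG-1 it was 0.36 (0.01 to 0.71; adjusted P = 0.271), neither of which passed the threshold. Counts were low, from 42 to 289 per library, and the level stayed at 2.91 ± 0.441 TPM after 4 hours of EGF.

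*CDKN2C*, the INK4 member p18 and an E2F-responsive gene, fell with either ligand. CSS libraries read 26.0, 29.6, 21.5, and 21.0 CPM. Those at 4 hours of EGF read 16.0, 14.8, 12.5, and 11.6 CPM, and after 4 hours of NRG-1 16.1, 16.1, 12.6, and 11.9 CPM. Neither 4-hour group overlapped CSS, and *CDKN2C* fell by 0.84 ± 0.05 (log2) with EGF (adjusted P = 1.85e-13) and by 0.79 ± 0.05 with NRG-1 (adjusted P = 1.04e-12). At 1 hour the fall was small, -0.22 ± 0.05 with EGF (adjusted P = 0.00571) and -0.21 ± 0.05 with NRG-1 (adjusted P = 0.012), and the ranges overlapped CSS. The NRG-1 call at 1 hour was lost when CSS batch 1 replicate 2 or NRG-1 batch 2 replicate 2 was left out, and in either batch alone neither 1-hour change was called (log2 changes from -0.23 to -0.18). By limma on log2(TPM + 1) they were not called either, the EGF change being -0.20 (adjusted P = 0.162) and the NRG-1 change -0.25 (adjusted P = 0.073).

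Summed over the 4 CDK inhibitors, the level was 203 ± 24.8 TPM in CSS, 310.4 ± 22.8 TPM after 1 hour of EGF, and 259 ± 41.8 TPM after 1 hour of NRG-1. The 1-hour EGF libraries (287 to 335 TPM) all stood above the CSS libraries (174 to 233 TPM). Those of NRG-1 (219 to 317 TPM) overlapped CSS only across batches, and within each batch all stood above every CSS library. At 4 hours the sum was 181 ± 21.4 TPM with EGF and 171 ± 25.3 TPM with NRG-1. Over both batches these libraries lay within the CSS range or below it, and within each batch all lay below every CSS library. The makeup shifted as well. *CDKN1B* made up 42.2% ± 7.65 of the sum in CSS and 26.1% ± 2.62 after 4 hours of EGF, while *CDKN1A* went from 44.9% ± 11.1 to 65.1% ± 4.64. These sums and shares are descriptions and were not tested.

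**Figure D3:**
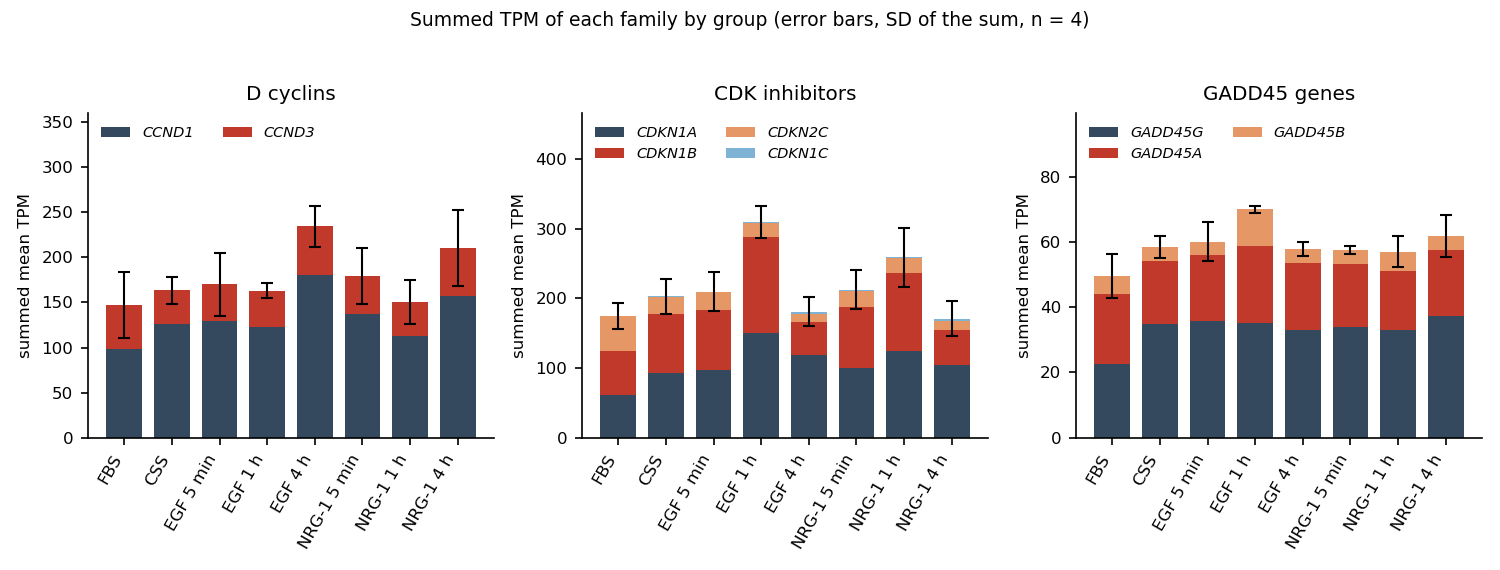
Summed TPM of the D cyclins, the 4 CDK inhibitors, and the GADD45 genes in each group, as stacked group means with the SD of the sum over 4 libraries. The CDK inhibitor sum was highest after 1 hour of EGF (310.4 TPM), and the D cyclin sum was highest after 4 hours of EGF (234 TPM). *CCND2*, at 0.01 TPM or less in every library, is left out.

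*GADD45B*, the family member with the properties of an immediate early gene in many cell types, had the largest 1-hour response of the members with EGF, and a brief one. With NRG-1 its 1-hour change (0.51) was level with that of *CDKN1A* (0.50) within their SE. CSS libraries read 3.07, 2.92, 3.05, and 2.95 CPM. After 1 hour of EGF they read 7.65, 6.99, 7.72, and 8.33 CPM, and after 1 hour of NRG-1 3.94, 3.27, 4.95, and 5.00 CPM. All 8 libraries stood above CSS, by a log2 change of 1.35 ± 0.10 with EGF (adjusted P = 1.07e-11) and 0.51 ± 0.10 with NRG-1 (adjusted P = 0.00076). With NRG-1 the change was 0.27 in batch 1 (adjusted P = 0.286) and 0.73 in batch 2 (adjusted P = 0.00806), and by limma on log2(TPM + 1) it was 0.36 (adjusted P = 0.0669). By 4 hours of EGF *GADD45B* read 3.42, 2.74, 3.46, and 3.35 CPM and by 4 hours of NRG-1 3.03, 3.19, 3.48, and 3.06 CPM. These overlapped CSS, with changes of 0.11 (-0.10 to 0.32) and 0.09 (-0.12 to 0.30).

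*GADD45A*, the p53-inducible founder of the family, changed less. CSS libraries read 13.4, 14.1, 12.4, and 14.1 CPM, and after 1 hour of EGF they read 16.7, 16.5, 15.0, and 16.0 CPM. The groups did not overlap, and the log2 change was 0.24 ± 0.06 (adjusted P = 0.00483). In batch 1 alone it was 0.28 (adjusted P = 0.0275) and in batch 2 alone 0.22 (adjusted P = 0.561). After 1 hour of NRG-1 *GADD45A* read 12.7, 13.6, 12.8, and 13.9 CPM, within the CSS range, with a change of -0.03 (-0.15 to 0.09). At 4 hours the change was 0.13 ± 0.06 with EGF (adjusted P = 0.0593), and that with NRG-1 was 0.14 ± 0.06 (adjusted P = 0.0618). With the replicate block both were called, at 0.14 (adjusted P = 0.015) and 0.14 (adjusted P = 0.0153).

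*GADD45G*, the most abundant of the 3 by TPM in CSS, was not called at any time of EGF. Its CSS libraries read 16.8, 17.7, 18.4, and 17.9 CPM, and after 4 hours of EGF 18.6, 18.2, 16.9, and 17.4 CPM, a change of 0.01 (-0.14 to 0.15). After 4 hours of NRG-1 they read 20.0, 21.3, 20.7, and 19.3 CPM, all above CSS, a log2 change of 0.20 ± 0.07 (adjusted P = 0.0206). That call was lost without CSS batch 1 replicate 1, without NRG-1 batch 1 replicate 2, in batch 2 alone (0.16, adjusted P = 0.404), and by limma on log2(TPM + 1) (0.10, adjusted P = 0.353). The GADD45 sum stood at 58.6 ± 3.35 TPM in CSS and 70.1 ± 1.05 TPM after 1 hour of EGF, of which *GADD45B* made up 7.40% ± 0.338 and 16.2% ± 0.749.

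The ligands were compared with each other at each time, which asks whether EGF and NRG-1 act alike on these genes. At 1 hour 2 of 9 members were higher with EGF, against 0.941% of all genes, and none was called lower. *GADD45B* was higher with EGF by 0.84 ± 0.10 (log2; adjusted P = 1.60e-06), in 4 of 4 pairs of same-numbered libraries. *GADD45A* was higher by 0.27 ± 0.06 (adjusted P = 0.0103), also in 4 of 4 pairs, and this call was lost without NRG-1 batch 1 replicate 1. Within batches the *GADD45B* difference was 1.03 in batch 1 (adjusted P = 8.64e-05) and 0.70 in batch 2 (adjusted P = 0.087), and that of *GADD45A* was 0.34 (adjusted P = 0.0306) and 0.22 (adjusted P = 0.908).

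For *CDKN1B* at 1 hour, the EGF level exceeded the NRG-1 level by 0.19 ± 0.05, just outside the threshold (adjusted P = 0.0517). The difference was called with the replicate block (0.19, adjusted P = 0.0182) and by DESeq2 (adjusted P = 0.00309). It was 0.32 in batch 1 (adjusted P = 0.00127) and 0.06 in batch 2 (adjusted P = 0.908). *CDKN1A* differed by 0.18 (0.01 to 0.35; adjusted P = 0.6). For the other 5 members the intervals at 1 hour covered 0.

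At 5 minutes and at 4 hours none of the 9 members was called between the ligands. Of all genes, 0% were called at 5 minutes and 1.66% at 4 hours, and 184 and 1906 had an unadjusted P below 0.05. Among the members 0 had such a P at 5 minutes and 3 at 4 hours, and DESeq2 called none at either time. The 4-hour intervals bound the differences: -0.10 to 0.13 for *CCND3*, -0.02 to 0.40 for *CCND1*, -0.24 to -0.05 for *CDKN1B*, -0.35 to 0.27 for *CDKN1C*, and -0.16 to 0.06 for *CDKN2C*. The 3 below an unadjusted 0.05 were *CDKN1A* (0.17), *CDKN1B* (-0.15), and *GADD45G* (-0.19), each in the same direction in 4 of 4 pairs.

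**Figure D4:**
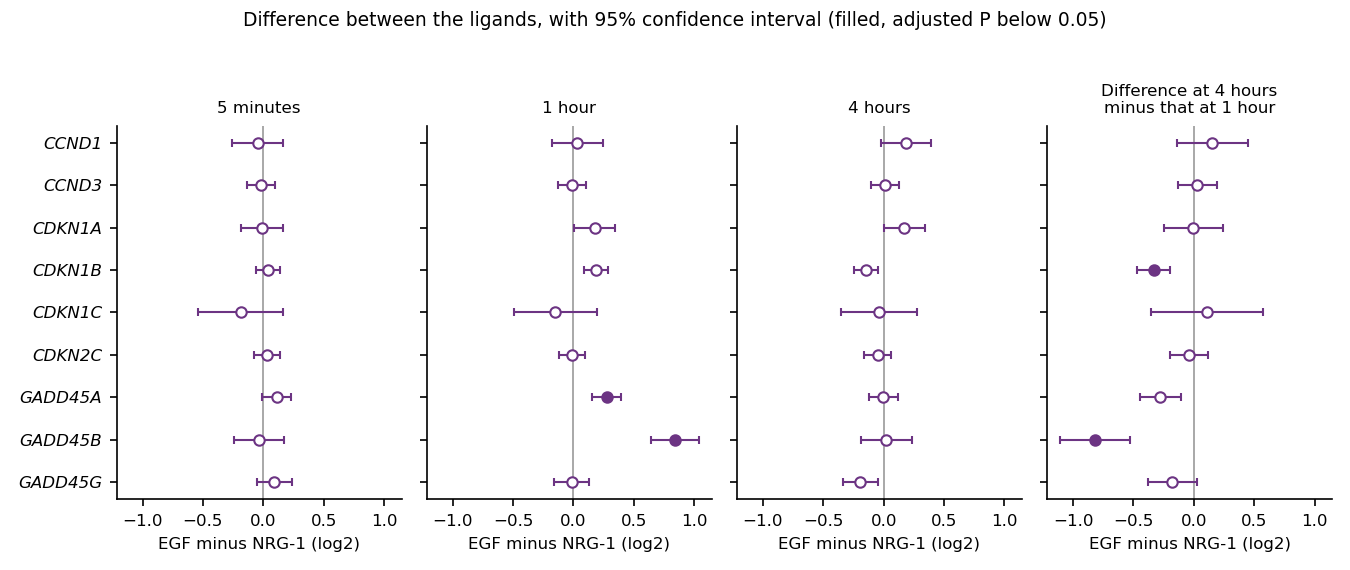
EGF minus NRG-1 for each gene at 5 minutes, 1 hour, and 4 hours, and the 4-hour difference minus the 1-hour difference, in log2 units with 95% confidence intervals. Filled symbols have an adjusted P below 0.05: *GADD45A* and *GADD45B* at 1 hour, and *CDKN1B* and *GADD45B* in the last panel, both below 0.

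Between 1 hour and 4 hours of EGF, 3 members rose (*CCND1*, *CCND3*, and *CDKN1C*) and 3 fell (*CDKN1B*, *GADD45B*, and *CDKN2C*), against 22.5% and 21.5% of all genes, and 3 of the 6 were DEGs (8.22% of genes). With NRG-1 5 rose and 3 fell, against 19% and 18.5%, and 2 were DEGs (6.79% of genes). The members called with EGF moved the same way with NRG-1, and *GADD45A* (0.17, adjusted P = 0.0262) and *GADD45G* (0.21, adjusted P = 0.0184) were called besides. The calls of *GADD45A* and *GADD45G* were lost without NRG-1 1 hour batch 1 replicate 1 or NRG-1 4 hours batch 1 replicate 2, and that of *GADD45A* also without NRG-1 4 hours batch 2 replicate 2. In batch 2 alone neither was called (0.13 and 0.10, adjusted P = 0.561 and 0.697), nor was the NRG-1 rise of *CCND1* (0.42, adjusted P = 0.207). Limma on log2(TPM + 1) also lost the calls of *GADD45A* and *GADD45G* (0.13 and 0.18, adjusted P = 0.127 and 0.0995). *GADD45B* fell by 1.24 ± 0.10 with EGF and by 0.43 ± 0.10 with NRG-1, where batch 1 alone gave -0.22 (adjusted P = 0.187). Whether these later changes differed by ligand was tested as an interaction, in which 0.506% of all genes and 2 members were called. *GADD45B* fell further with EGF, by a difference of -0.82 ± 0.14 (adjusted P = 0.00187), as did *CDKN1B*, by -0.33 ± 0.07 (adjusted P = 0.0122). The *CDKN1B* interaction was lost without EGF 1 hour batch 1 replicate 1 and without NRG-1 4 hours batch 2 replicate 2. It was -0.43 in batch 1 (adjusted P = 0.005) and -0.23 in batch 2 (adjusted P = 1), and by limma on log2(TPM + 1) it was -0.40 (adjusted P = 0.182). The interaction of *GADD45B* was -1.05 in batch 1 (adjusted P = 0.0061) and -0.63 in batch 2 (adjusted P = 1).

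Compared with CSS, cells in full serum held more *CDKN2C* and *CCND3* and less *CDKN1C* and *GADD45G*. In all, 4 members were higher and 4 lower, with 26% of all genes called higher and 26.8% lower. *CDKN2C* read 66.7, 62.4, 52.3, and 55.5 CPM in FBS, far above the CSS range, with a log2 difference of 1.28 ± 0.05 (adjusted P = 1.19e-17). *CCND3* (74.1, 63.4, 54.4, and 49.5 CPM) was higher by 0.53 ± 0.06 (adjusted P = 7.92e-09), and its groups did not overlap. *GADD45B* (0.51 ± 0.10) and *GADD45A* (0.34 ± 0.06) were also higher (adjusted P = 9.71e-05 and 2.25e-05). By limma on log2(TPM + 1) neither was called, at 0.26 for *GADD45B* (adjusted P = 0.0529) and 0.13 for *GADD45A* (adjusted P = 0.0853).

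*CCND1* was not called in FBS: it read 319, 256, 265, and 240.1 CPM, a difference of -0.17 (-0.38 to 0.04; adjusted P = 0.157). With the replicate block it was called lower, at -0.18 (adjusted P = 0.0298). *CCND3* made up 32.7% ± 2.07 of D cyclin TPM in FBS and 23.0% ± 1.68 in CSS. The members lower in FBS were *CDKN1C* (0.656, 0.650, 0.648, and 0.706 CPM; -0.70 ± 0.19, adjusted P = 0.0023), *GADD45G* (13.1, 13.8, 12.2, and 13.6 CPM; -0.43 ± 0.07, adjusted P = 1e-05), *CDKN1A* (63.7, 60.4, 107, and 96.2 CPM; -0.38 ± 0.08, adjusted P = 0.000451), and *CDKN1B* (-0.20 ± 0.05, adjusted P = 0.000812). *CDKN1C* and *GADD45G* did not overlap CSS, nor did *CDKN1B*, whose FBS libraries read 103, 104, 99.3, and 96.3 CPM. In batch 1 alone the *CDKN1C* call was lost (-0.47, adjusted P = 0.0927), and in batch 2 alone those of *CDKN1B* (-0.19, adjusted P = 0.0819) and *GADD45A* (0.28, adjusted P = 0.0672). The summed basal markers (*KRT5*, *KRT14*, and *TP63*) stood at 0.84 to 2.17 TPM in FBS and 0.05 to 0.26 TPM in CSS, with *KRT5* at 0 in 28 of 32 libraries. The summed fibroblast markers stood at 1.37 to 2.37 TPM in FBS and 2.73 to 4.21 TPM in CSS, and the summed luminal markers at 4144 to 6057 TPM and 3172 to 3619 TPM. None of these 3 sums overlapped between FBS and CSS. The luminal sum also stood clear of CSS after 1 hour (3805 to 4005 TPM) and 4 hours of EGF (3954 to 4480 TPM). It overlapped CSS in the other ligand groups. The part of these sums in the differences of the members was not tested.

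The wider cell cycle machinery is given from a list of 19 genes, all of which were tested. No gene of this list or of the 3 other lists was called at 5 minutes. In FBS 15 were higher than in CSS and 2 lower, against 26% and 26.8% of all genes, with a median log2 difference of 0.86 against -0.01 over all genes. The largest rise was that of *CKS1B*, a cofactor of SKP2 in p27 degradation (1.77 ± 0.18, adjusted P = 1.55e-09), and the largest fall that of *CDKN2B*, the INK4 inhibitor p15 (-1.09 ± 0.19, adjusted P = 2.45e-05). At 4 hours of EGF 8 rose and 8 fell (median -0.06), against 24.6% of all genes in each direction. At 4 hours of NRG-1 5 rose and 7 fell (median 0.04), against 21.6% and 21%, so that the share that rose was near that of all genes. *CDKN2B* rose most, by 3.17 ± 0.17 with EGF (adjusted P = 2.60e-15) and 2.58 ± 0.17 with NRG-1 (adjusted P = 3.07e-13). The falls were led by *CDKN2D*, the INK4 inhibitor p19, with EGF (-0.60 ± 0.05, adjusted P = 2.15e-10) and by *RBL1*, the pocket protein p107, with NRG-1 (-0.51 ± 0.06, adjusted P = 6.22e-08). At 1 hour *CDKN2B* rose and *SKP2* fell with either ligand, and with NRG-1 *CDKN2D* also fell. These were the only calls of the list at 1 hour, 1 up and 1 down with EGF, against 6% and 3.51% of all genes. With NRG-1 they were 1 up and 2 down, against 4.45% and 2.28%, and the counts with EGF were near the shares of all genes. Between the ligands at 4 hours 2 of the 19 were called higher with EGF, where 1.66% of all genes were called in either direction.

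Of 21 p53 target genes other than the members, all tested, 6 rose and 2 fell at 1 hour of either ligand, against 6% and 3.51% of all genes with EGF and 4.45% and 2.28% with NRG-1. *PLK2*, a polo-like kinase, rose most with EGF (1.99 ± 0.09, adjusted P = 6.56e-17) and *PLK3* with NRG-1 (1.61 ± 0.09, adjusted P = 5.33e-14). At 4 hours 3 rose and 14 fell with EGF (median -0.29), where 24.6% of all genes were called in each direction, and 3 rose and 12 fell with NRG-1 (median -0.21), where 21.6% rose and 21% fell. *SESN1*, a stress-induced regulator of mTORC1 that the FOXO list also holds, fell by 2.15 ± 0.12 with EGF (adjusted P = 5.98e-15) and by 1.81 ± 0.12 with NRG-1 (adjusted P = 3.11e-13). In the same 4-hour libraries *CDKN1A* was called above CSS in the fit of both batches, and with neither ligand in batch 2 alone. Between the ligands, *PLK2* (0.68 ± 0.08, adjusted P = 5.13e-06) and *AEN* (0.29 ± 0.06, adjusted P = 0.00548) were higher with EGF at 1 hour, and the other 19 were not called. Of all genes, 0.941% were called higher with EGF at that time. At 4 hours 2 of the 21 were called higher with EGF, where 1.66% of all genes were called in either direction.

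Of 11 FOXO target genes other than *CDKN1B*, 2 rose and 9 fell after 4 hours of EGF, with a median of -0.71, and 1 rose and 8 fell after 4 hours of NRG-1, with a median of -0.59. The shares of all genes were 24.6% in each direction with EGF, and 21.6% and 21% with NRG-1. *BCL6*, a transcriptional repressor, was the riser with the largest change (1.52 ± 0.08 with EGF, adjusted P = 4.83e-15). At 1 hour 2 of the 11 rose and 2 fell with EGF (median -0.03), against 6% and 3.51% of all genes. With NRG-1 3 rose and 2 fell at 1 hour (median -0.06), against 4.45% and 2.28%. The other 7 with EGF and 6 with NRG-1 were not called. *CCNG2*, a cyclin linked to quiescence, rose at 1 hour (1.37 ± 0.07 with EGF, adjusted P = 6.05e-15; 1.12 ± 0.07 with NRG-1, adjusted P = 1.05e-12) and was below CSS at 4 hours (-0.71 with EGF and -0.59 with NRG-1), the same sequence of directions as *CDKN1B*. Between FBS and CSS 2 were higher and 6 lower (median -0.56), against 26% and 26.8% of all genes, with *SESN3* lowest at -1.54 ± 0.07 (adjusted P = 2.35e-17).

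Among 14 genes for GADD45 partners and the p38 and JNK kinases, 1 rose at 1 hour of either ligand, *MAP2K3*, a kinase that activates p38 (0.47 ± 0.09 with EGF, adjusted P = 0.000297; 0.28 ± 0.09 with NRG-1, adjusted P = 0.0484). At 4 hours 4 rose and 2 fell with EGF, and 5 rose and 2 fell with NRG-1. Of all genes, 6% and 4.45% rose at 1 hour of EGF and NRG-1, and 24.6% and 21.6% rose and 24.6% and 21% fell at 4 hours, so the counts with EGF were near or below the shares of all genes. *MAP2K3* rose most (1.60 ± 0.09 and 1.19 ± 0.09), and *MAP2K6*, the other p38-activating kinase, fell most (-0.99 ± 0.13 and -0.94 ± 0.13). In FBS *PCNA*, the replication clamp that GADD45 proteins bind, was higher by 1.66 ± 0.13 (adjusted P = 2.04e-11).

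The members that were DEGs in a comparison of a ligand with CSS, *GADD45B* and *CDKN1C*, were also matched to the genes most like them across the 32 libraries, by Pearson r of log2 CPM after the batch means were removed. For *GADD45B* the nearest of 12018 genes were *ERRFI1*, a feedback inhibitor of EGFR (r = 0.91), *TAF5* (r = 0.89), and *GDF15* (r = 0.87). For *CDKN1C* the nearest of 12019 were *IFNGR2*, *LEF1*, and *CCDC106*, each with r = 0.97. The leading gene changed with the measure: by rank correlation it was *CDR2* for *GADD45B* and *MLF2* for *CDKN1C*, and by the 8 group means *ENTPD7* and *LITAF*. These values describe libraries that share groups and treatments, and carry no test.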

How the data were processed

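Polyadenylated RNA of 32 LNCaP libraries (8 groups of 4) was sequenced by the authors with a strand-specific kit. The submitters' processing notes list Trimmomatic 0.36, STAR 2.7.0f, RSEM, and genome build hg19; the gene annotation is not given in the sources used here. The authors deposited expected counts per gene, not normalized for library size, and TPM values, normalized for transcript length and library total. Of the expected counts 11.2% were not whole, and all were rounded. RSEM shares reads between similar transcripts, so a count is an estimate.

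Genes reaching 5 counts in 3 or more libraries were tested with the quasi-likelihood method of edgeR 4.0.16 (R 4.3.3) with TMM scaling, a term for group, and a term for batch, in 1 fit of all libraries. P values were adjusted by Benjamini-Hochberg within each of 13 comparisons. Library totals (63822654 to 92401724) limit precision most for *CDKN1C* and *GADD45B*, the tested members with the fewest counts.

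The main fit used no replicate block. Libraries with the same batch and replicate number were treated as pairs only for the counts of pairs and in the replicate block, an alternative. After subtraction of group means they correlated above 0.1 in all 112 pairs of libraries (r from 0.133 to 0.571), but they share a batch. With the batch removed, 54 of 112 pairs exceeded 0.1, and the median r was 0.0823. Each batch and group held 2 libraries, so in this check both replicate numbers of a batch gave the same r values. The 112 pairs are therefore not separate values. Alternatives were DESeq2 1.42.0, limma 3.58.1 on log2(TPM + 1) or log2(TPM + 0.1), other filters and scaling, each batch alone, no batch term, the replicate block, only the groups compared, and each library left out. Motifs were sought in RefSeq promoters of GRCh38.p14.

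The genes, lists, and comparisons were chosen with earlier results of these data known. The text names all 10 members and the 3 genes most like each member that was a DEG for a ligand against CSS. From the lists it names called genes with the largest rise or fall in a comparison (average log2 CPM of at least 1). It does not name both for every list and comparison. *SKP2*, *CDKN2D*, *AEN*, and *CCNG2* were also named beside these after their values were seen.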

Additional observations from a re-analysis of the deposited data

Results flagged for a closer look

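In 3 of 72 sets of 4 libraries, 1 library stood apart from the others by Dixon's criterion, where chance would give 3.6. *CCND1* at 4 hours of EGF read 515.1 CPM in batch 2 replicate 1 and 433.4 to 443.4 CPM in the others. *CDKN1C* in FBS read 0.7058 CPM in batch 2 replicate 2 and 0.6482 to 0.6557 CPM in the others. *GADD45B* at 4 hours of EGF read 2.744 CPM in batch 1 replicate 2 and 3.353 to 3.462 CPM in the others.

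The effects of EGF and NRG-1 differed for 3 members by the edgeR quasi-likelihood test of the difference itself. At 1 hour *GADD45A* and *GADD45B* were higher with EGF, by 0.2735 (adjusted P = 0.0103) and 0.8395 (adjusted P = 1.6e-06) on the log2 scale. The change from 1 hour to 4 hours was more negative with EGF for *CDKN1B*, by -0.3332 (adjusted P = 0.0122), and for *GADD45B*, by -0.8181 (adjusted P = 0.00187).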

How the results depend on the processing

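No member reversed its direction in a called comparison under any alternative run. The number of members called moved by more than 1.5 times as follows. With the log2 limit of 1 added, it was 1 for EGF at 1 hour and 1 at 4 hours, 0 for NRG-1 at 1 hour and 1 at 4 hours, 1 for FBS, 0 between the ligands at 1 hour, 3 and 2 from 1 hour to 4 hours of EGF and NRG-1, and 0 for the ligand by time interaction. With no batch term it was 3 for EGF and 2 for NRG-1 at 1 hour (*CDKN1A* and *CDKN2C* were lost, and *CDKN1A* also at 4 hours of each ligand and in FBS), 1 between the ligands at 1 hour, and 1 for the interaction. Batch 1 alone gave 2 for NRG-1 at 1 hour. Batch 2 alone gave 3 for EGF at 1 hour, 4 for NRG-1 at 4 hours, 0 between the ligands at 1 hour, and 0 for the interaction, where each single-batch fit has 2 libraries per group. With only the groups compared it was 1 between the ligands at 1 hour (*GADD45A* was lost). All 3 limma settings on TPM gave 2 for NRG-1 at 1 hour, 4 for NRG-1 at 4 hours, and 1 for the interaction, and the setting without a TPM filter gave 5 from 1 hour to 4 hours of NRG-1. Leaving out 1 library gave 1 to 3 between the ligands at 1 hour and 1 to 2 for the interaction. The cause of these shifts was not tested, and in the smaller fits the number of libraries changed together with which libraries were kept.

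The replicate block lost no call and added 7, which are given with the results or here: *GADD45A* from 1 hour to 4 hours of EGF at -0.11 (adjusted P = 0.0499) and in the interaction at -0.28 (adjusted P = 0.0337). It changed no other call. DESeq2 lost none of the 48 calls and added 3. The interaction was not run on only the groups compared. Depth limits *CCND2*, and the counts of *CDKN1C* (42 to 289 per library) limit its 1-hour values.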
